A study of Rattus norvegicus with 66 samples.

Results

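The cholinesterases and the cholinergic receptors were examined in the hippocampus of rat pups whose mothers had received Aroclor 1254, bisphenol A or chlorpyrifos. The 10 genes were taken by symbol from the 37777 gene entries of the count files, with no filter on their values. Their list was set with earlier results of these data known. They are Ache and Bche, Chat and Slc5a7, the muscarinic receptor genes Chrm1, Chrm2 and Chrm3, and the nicotinic receptor subunit genes Chrna4, Chrna7 and Chrnb2. Chat had 2 entries, with 1863 and 596 counts over all libraries, and the entry with more counts was used.

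Acetylcholine is made from choline by choline acetyltransferase, encoded by Chat, in neurons that take up choline through the high-affinity transporter Slc5a7. Acetylcholinesterase (Ache) splits it in the synapse, and butyrylcholinesterase (Bche) is a related enzyme found mainly in glia and plasma. In the hippocampus the transmitter arrives on axons from the basal forebrain, so that the cell bodies that carry Chat and Slc5a7 lie largely outside it, whereas its own neurons carry muscarinic M1 and M3 receptors, M2 receptors and nicotinic receptors built from alpha4 with beta2 or from alpha7 subunits. Chlorpyrifos is an organophosphate whose oxon inhibits both cholinesterase proteins. The counts measure mRNA and say nothing of enzyme activity.

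The pups were Long Evans rats on postnatal day (PND) 6, 41 males and 23 females, with 66 libraries in all. Feeding vehicle controls (CONF, 4 males and 5 females) came from dams fed without a chemical and injection controls (CONSC, 5 males and 5 females) came from dams injected with vehicle, for which the labels name saline and the methods of the study dimethyl sulfoxide. Dams of the Aroclor 1254 groups Aro0.5 (4 males) and Aro5 (6 males, 5 females), and of the bisphenol A groups BPA0.5 (4 males) and BPA5 (7 males, 4 females), were fed 0.5 or 5 mg/kg in chow from before mating into lactation. Dams of the chlorpyrifos groups were injected subcutaneously during pregnancy and lactation with 1 mg/kg (CPF1, 4 males) or 3 mg/kg (CPF3, 7 males and 4 females). The 64 pups came from 44 litters, of which 18 gave pups of both sexes, and Aro5 held a pair of littermates in each sex. CONF and CONSC were combined within a sex, giving 9 male and 10 female controls that all comparisons of that sex shared.

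Total counts per library were 10644138 to 86206550, with a median of 20740650. The labelled tissue was dorsal hippocampus, dissected with some lateral cortex. Of the 7 hippocampal markers in the files, 6 were detected and Fibcd1 was at 0 in every pup; their summed level was 109 to 319 counts per 1000000 counts (CPM). The summed markers of thalamus ranged from 199 to 1609 CPM, those of striatum from 112 to 1541 CPM, those of choroid plexus from 762 to 4537 CPM and those of cholinergic neurons from 7.90 to 59.8 CPM, so RNA from beyond the hippocampus was present in varying amounts. In such bulk tissue, fewer cells of a type and less RNA per cell cannot be told apart. Library titles were spelled in 2 ways, here called form A and form B, and the labels do not say what the spelling stands for. All low-dose males and all 9 male controls had form A, with a second library of form B for 1 of these controls, and all high-dose males had form B. Of the female control libraries 5 had form A and 6 had form B, whereas the titles of high-dose females did not show a form.

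The promoters of Ache, Chrna4 and Chrnb2 are shown because these genes varied together between pups and were higher in female than in male pups of the high-dose groups. The 250 bases before each start site, from RefSeq on the build GRCr8, are written 5′ to 3′ in the direction of the gene, with the motif GGGCGG, the core of a GC box, or its other strand CCGCCC in capitals.
Ache, chr12:25050411-25050660, minus strand: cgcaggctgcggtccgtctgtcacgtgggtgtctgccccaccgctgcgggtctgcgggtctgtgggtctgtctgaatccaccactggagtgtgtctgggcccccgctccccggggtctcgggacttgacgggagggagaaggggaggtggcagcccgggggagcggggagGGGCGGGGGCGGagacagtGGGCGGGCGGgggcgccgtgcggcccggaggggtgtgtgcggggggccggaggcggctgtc
Chrna4, chr3:188534527-188534776, minus strand: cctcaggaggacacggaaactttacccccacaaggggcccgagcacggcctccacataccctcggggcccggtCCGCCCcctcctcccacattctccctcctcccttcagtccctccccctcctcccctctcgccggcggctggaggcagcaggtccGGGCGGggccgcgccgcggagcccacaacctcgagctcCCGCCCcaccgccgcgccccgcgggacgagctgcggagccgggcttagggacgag
Chrnb2, chr2:177487307-177487556, minus strand: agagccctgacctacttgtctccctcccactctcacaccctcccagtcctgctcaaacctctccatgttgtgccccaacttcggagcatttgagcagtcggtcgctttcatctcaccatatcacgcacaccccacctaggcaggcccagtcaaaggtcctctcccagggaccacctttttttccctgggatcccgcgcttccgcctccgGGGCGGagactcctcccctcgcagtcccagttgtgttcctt
The bases G and C made up 75.6% of the Ache, 74.4% of the Chrna4 and 59.6% of the Chrnb2 stretch, against a median of 51.2% over 33469 rat promoters. The other members also lay above this median, from 53.2% (Slc5a7) to 66.0% (Chrna7). Chrna7, Chrm2 (62.0%) and Chrm3 (60.0%) lay above Chrnb2. The Ache stretch held 4 and the Chrna4 stretch 3 matches, with overlapping matches counted separately, and that of Chrnb2 held 1. Of the 10 members, 7 held at least 1 match (Bche, Chat and Chrm1 held none), compared with 30.5% of all promoters of this length.

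The first question was whether the mRNA of the enzymes that chlorpyrifos inhibits differed in exposed pups. In the 4 CPF1 males Ache was 45.5, 54.6, 65.1 and 73.2 CPM, and in the 7 CPF3 males it was 45.3 at the lowest, 49.0 at the median and 96.2 at the highest. The 9 male controls had 42.6 CPM at the lowest, 58.7 at the median and 76.6 at the highest. Both exposed groups thus overlapped the controls, and 6 of the 7 CPF3 males lay below the mean of the controls while 1 pup, 36-3y, stood above all of them. The log2 difference from controls was 0.05 in CPF1 males (95% interval -0.32 to 0.42, edgeR adjusted p = 0.997) and -0.02 in CPF3 males (-0.39 to 0.35, adjusted p = 0.971). Expressed as fold change, these intervals ran from 0.799 to 1.34 and from 0.763 to 1.27. Without pup 36-3y the CPF3 difference was -0.20 (edgeR adjusted p = 0.668).

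In CPF3 females Ache was 49.9, 76.5, 83.8 and 115 CPM, against 63.6 at the lowest, 81.4 at the median and 114 at the highest in the 10 female controls. The lowest of these pups lay below all controls and the highest just above them. The log2 difference was -0.04 (95% interval -0.40 to 0.32, edgeR adjusted p = 0.959). It depended on single pups: it was 0.14 without 38-5x, the lowest, and -0.28 without 45-6x, the highest. Pup 38-5x also had the lowest summed level of thalamic markers of all 64 pups (199 CPM) and 45-6x a level of 1210 CPM. The part of this in the Ache values was not tested.

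Bche, the other cholinesterase, was 7.46, 7.65, 8.55 and 10.3 CPM in CPF1 males and 7.27 to 12.8 CPM, with a median of 8.88, in CPF3 males. Male controls had 5.47 to 12.4 CPM and a median of 8.70. CPF3 females had 5.81, 7.76, 7.89 and 9.54 CPM, against 6.36 to 9.61 CPM and a median of 7.83 in female controls. None of these groups separated from its controls. The log2 differences were -0.05 in CPF1 males (-0.41 to 0.30), 0.11 in CPF3 males (-0.24 to 0.45) and -0.02 in CPF3 females (-0.29 to 0.25), with edgeR adjusted p values of 0.997, 0.811 and 0.978. The intervals leave room for changes up to 1.37-fold in CPF3 males.

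**Figure D1:**
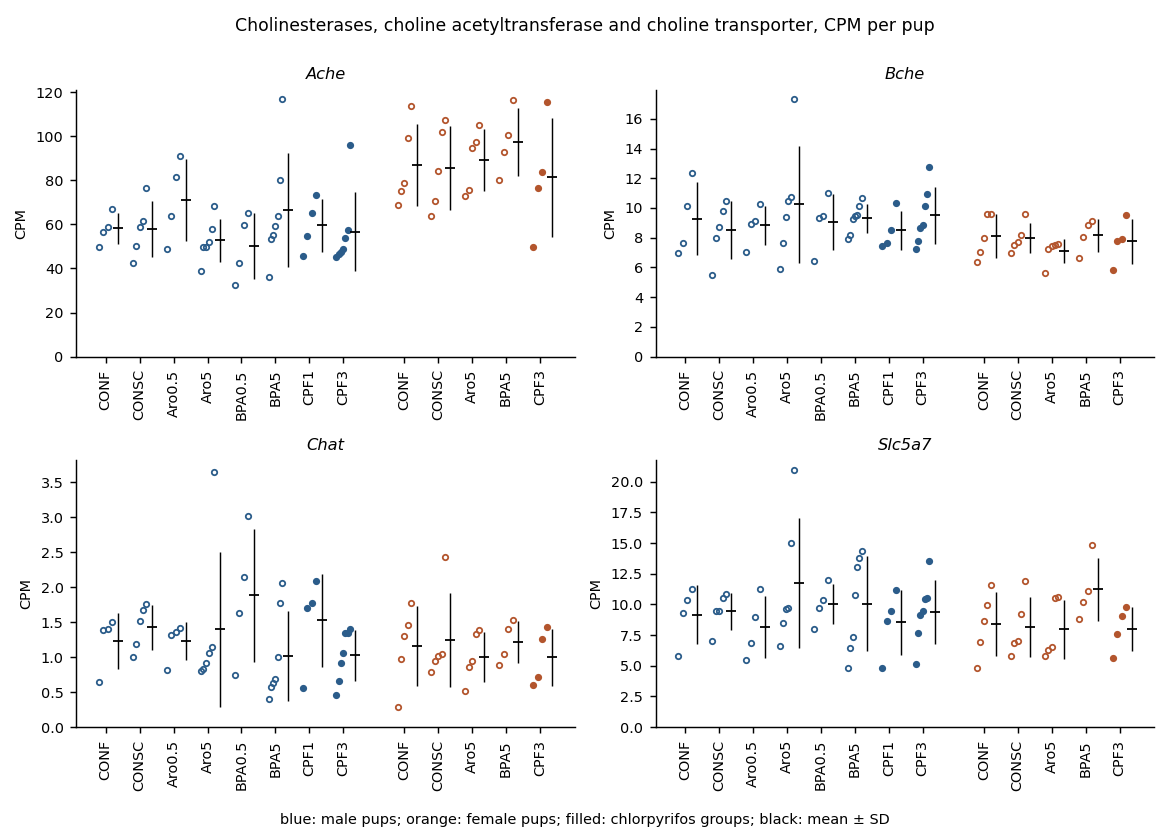
CPM (y axis, from 0) of Ache, Bche, Chat and Slc5a7 in every pup of the 13 groups (x axis), with males in blue, females in orange, chlorpyrifos groups filled, and mean ± SD as black bars. In each panel the filled points overlap the open points of the controls of the same sex, and Ache lies higher in females (49.9 to 116 CPM) than in most males (32.7 to 117 CPM).

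Chat, which makes acetylcholine, had few counts, 6 to 109 per pup, and its values were correspondingly uncertain. It was 0.564, 1.70, 1.77 and 2.08 CPM in CPF1 males, and 0.460 to 1.40 CPM (median 1.06) in CPF3 males. Male controls had 0.642 to 1.76 CPM with a median of 1.40. The CPF3 males thus lay toward the lower part of the controls, with 3 of 7 at or just above the mean of the controls (1.34 CPM). The log2 difference was 0.22 in CPF1 males (-0.40 to 0.84), -0.39 in CPF3 males (-1.10 to 0.31) and -0.17 in CPF3 females (-0.86 to 0.53), with edgeR adjusted p values of 0.997, 0.637 and 0.909. With both entries of Chat summed these values were 0.26, -0.46 and -0.21. Markers of cholinergic neurons, which were chosen without Chat, had a median summed level of 13.7 CPM in CPF3 males (range 10.3 to 30.4) and 26.5 CPM in male controls (14.5 to 40.9), and those of striatum 192 CPM (171 to 775) and 477 CPM (147 to 772). The part of this in the Chat values was not tested.

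Slc5a7, which supplies Chat with choline, was 4.84, 8.64, 9.49 and 11.2 CPM in CPF1 males and 5.10 to 13.5 CPM (median 9.48) in CPF3 males, against 5.77 to 11.2 CPM (median 9.48) in male controls. The medians of CPF3 males and controls were the same to 3 digits. CPF3 females had 5.65, 7.57, 9.02 and 9.78 CPM, within the range of female controls (4.84 to 11.9). The log2 differences were -0.12 (-0.52 to 0.28), 0.020 (-0.45 to 0.49) and -0.055 (-0.49 to 0.38) in CPF1 males, CPF3 males and CPF3 females.

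Among the receptors, Chrna7, which encodes the homomeric alpha7 nicotinic receptor, showed the widest difference in CPF3 males. It was 14.2, 15.6, 17.2, 17.9, 24.03, 27.2 and 28.7 CPM in the 7 CPF3 males, against 6.20 at the lowest, 13.0 at the median and 23.1 at the highest in male controls. All 7 pups lay above the mean of the controls (13.8 CPM), 3 of them above every control, and the ranges overlapped. The log2 difference was 0.59 (95% interval 0.06 to 1.12), with an unadjusted p of 0.0314 and an edgeR adjusted p of 0.368, so that it did not pass the threshold over all genes. The summed thalamic markers had a median of 1065 CPM in CPF3 males and 808 CPM in male controls, and the neocortical markers 520 and 445 CPM. Striatal markers had medians of 192 and 477 CPM, cholinergic neuron markers 13.7 and 26.5 CPM, and hippocampal markers 273 and 232 CPM. The part of any of these in the Chrna7 values was not tested. Without 1 pup at a time the difference ranged from 0.49 to 0.71, with adjusted p values of 0.214 to 0.642. CPF3 males and their controls differ also in the form of the library titles, and with the form as a term, which rests on the 2 libraries of 1 control pup, the difference was 0.48 (edgeR adjusted p = 0.9999).

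In CPF1 males Chrna7 was 8.58, 10.4, 10.8 and 13.2 CPM, with a log2 difference of -0.35 from controls (-0.91 to 0.20, edgeR adjusted p = 0.997). The 4 CPF1 males all lay below the 7 CPF3 males. Between the doses the log2 difference, CPF3 minus CPF1, was 0.95 (0.28 to 1.62, unadjusted p = 0.00644, edgeR adjusted p = 0.344). Dose and form of the library titles cannot be told apart in this comparison. CPF3 females had 11.3, 14.3, 16.9 and 17.5 CPM against 7.49 to 17.3 CPM (median 14.7) in female controls, a log2 difference of 0.20 (-0.21 to 0.61, adjusted p = 0.782).

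Chrm2, the muscarinic receptor that acts as an autoreceptor on cholinergic terminals, was 1.64, 1.77, 2.75 and 2.91 CPM in CPF1 males, on 22 to 56 counts per pup. Male controls had 1.71 at the lowest, 3.92 at the median and 5.82 CPM at the highest. All 4 CPF1 males lay below the control mean of 3.55 CPM, within or just below the range of the controls. The log2 difference was -0.64 (-1.26 to -0.0094, unadjusted p = 0.0469, edgeR adjusted p = 0.997). In CPF3 males Chrm2 was 2.23 to 5.41 CPM (median 3.76), with a log2 difference of 0.17 (-0.41 to 0.75). CPF3 minus CPF1 was 0.81 (0.06 to 1.57, unadjusted p = 0.0361, adjusted p = 0.424). CPF3 females had 1.96, 3.21, 3.33 and 4.02 CPM, against 2.40 to 5.81 CPM in female controls, and a log2 difference of -0.30 (-0.85 to 0.24).

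Chrm1 and Chrm3, the muscarinic receptors that couple to phospholipase C, differed less in relation to their spread. Chrm1 was 17.7, 20.3, 30.2 and 30.3 CPM in CPF1 males and 14.1 to 43.3 CPM (median 27.4) in CPF3 males. Male controls had 19.4 to 27.4 CPM (median 23.5), so that both exposed groups spread more widely than the controls on either side. The log2 differences were 0.06 (-0.24 to 0.36) and 0.22 (-0.16 to 0.61). In CPF3 females Chrm1 was 19.8, 28.9, 33.7 and 34.8 CPM, all 4 below the mean of the female controls (34.9 ± 6.78 CPM, SD, n = 10), with a log2 difference of -0.23 (-0.55 to 0.10, edgeR adjusted p = 0.682). Chrm3 was 45.2, 46.4, 51.6 and 57.9 CPM in CPF1 males, 38.5 to 66.4 CPM (median 50.8) in CPF3 males and 31.7, 44.2, 51.0 and 53.1 CPM in CPF3 females, with controls at 41.2 to 60.0 CPM in males and 21.6 to 56.7 CPM in females. It had the log2 differences 0.039 (-0.17 to 0.25), 0.08 (-0.13 to 0.29) and -0.00069 (-0.36 to 0.36) in CPF1 males, CPF3 males and CPF3 females.

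Chrna4 and Chrnb2, whose products form the main high-affinity nicotinic receptor of the brain, lay close to controls in males. Chrnb2 was 33.9, 36.5, 37.3 and 38.9 CPM in CPF1 males and 32.0 to 41.6 CPM (median 34.6) in CPF3 males, against 33.4 to 40.1 CPM (median 35.0) in male controls. Its interval in CPF3 males was the narrowest of the 10 genes, at 0.013 with bounds of -0.15 and 0.18, which correspond to 0.900-fold and 1.13-fold. Chrnb2 of CPF3 females was 37.7, 40.3, 47.7 and 52.3 CPM, with a log2 difference of 0.08 (-0.14 to 0.30). Chrna4 was 39.9, 43.3, 45.6 and 52.2 CPM in CPF1 males and 38.8 to 60.2 CPM (median 40.4) in CPF3 males, against 34.8 to 64.6 CPM (median 41.2) in male controls. Its log2 differences were 0.08 (-0.25 to 0.41) in CPF1 males, 0.056 (-0.24 to 0.35) in CPF3 males and 0.15 (-0.25 to 0.55) in CPF3 females. The CPF3 females had 35.1, 60.3, 60.6 and 77.9 CPM, with the same lowest and highest pups as for Ache.

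**Figure D2:**
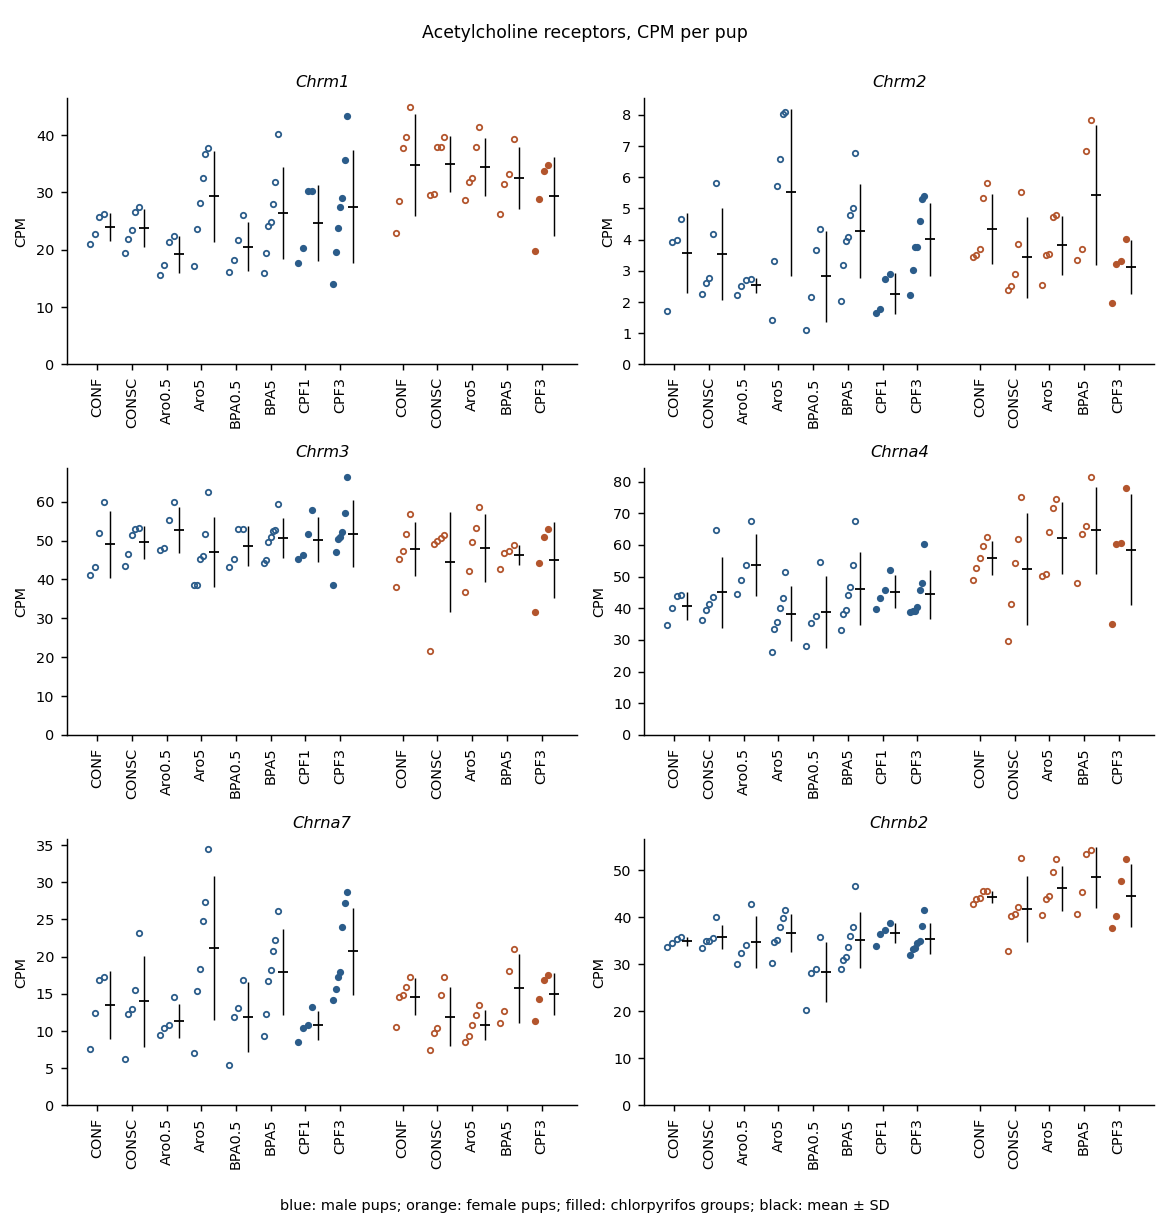
CPM (y axis, from 0) of the 6 receptor genes in every pup of the 13 groups (x axis), with males in blue, females in orange, chlorpyrifos groups filled, and mean ± SD as black bars. In the Chrna7 panel the 7 CPF3 males lie between 14.2 and 28.7 CPM and the 4 CPF1 males between 8.58 and 13.2 CPM, while the 9 male controls span 6.20 to 23.1 CPM.

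All 10 genes could be tested in every comparison. In CPF1 males 0 of 10 passed an adjusted p of 0.05 in edgeR, as 0% of all genes did, and 1 of 10 (Chrm2) had an unadjusted p under 0.05, against 2% of all genes. In CPF3 males the counts were 0 of 10, with 0.159% of all genes passing, and 1 of 10 unadjusted (Chrna7), with 12.6% of all genes. In CPF3 females they were 0 of 10 at both limits, against 0% and 8.79% of all genes. DESeq2 also passed 0 of 10 in each of these comparisons, and its unadjusted p was below 0.05 for 1, 1 and 0 of them. The median log2 difference of the 10 genes was 0.043, 0.069 and -0.032 in CPF1 males, CPF3 males and CPF3 females, beside 0.010, 0.0029 and -0.013 over all genes tested. CPF3 against CPF1 males gave 0 of 10 genes (0.161% of all genes) and 2 of 10 unadjusted (11.1%). The CPF3 response did not pass a test of difference between the sexes for any of the 10 genes in edgeR (0 of 10, with 0.0463% of all genes, and 0 of 10 unadjusted, with 5.6%), and DESeq2 gave 0 and 0 as well. The largest such difference, female minus male response, was -0.49 for Chrm2 (-1.32 to 0.35). A p above the threshold does not show that the responses were alike, and the widest interval in CPF3 males, that of Chat, ran from 0.468-fold to 1.24-fold.

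**Figure D3:**
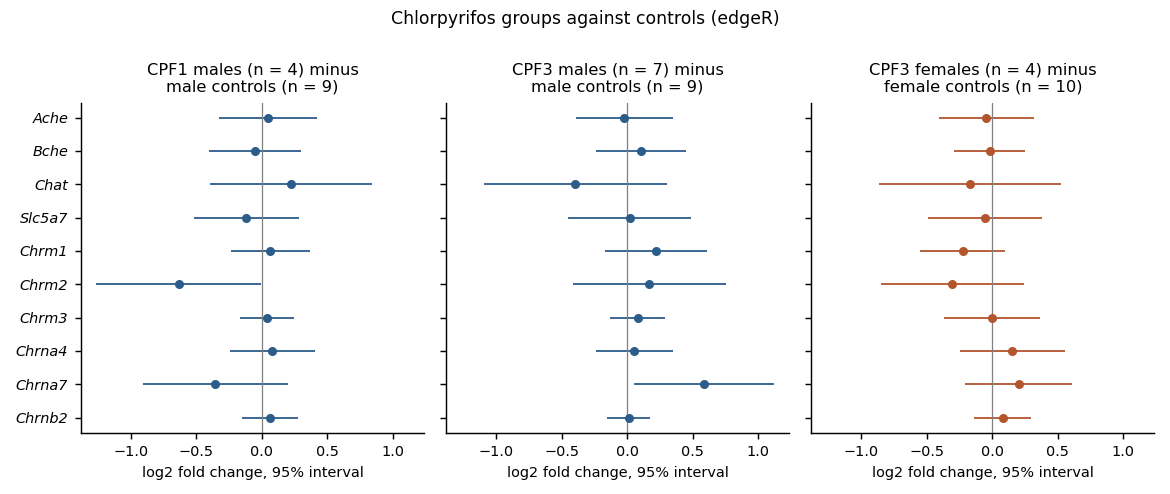
Log2 fold change with 95% interval (x axis) of the 10 genes (y axis) in CPF1 males, CPF3 males and CPF3 females against controls of the same sex, from edgeR. The intervals lie across 0 except for Chrm2 in CPF1 males (-1.26 to -0.0094) and Chrna7 in CPF3 males (0.06 to 1.12), which did not pass adjustment over all genes.

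Other genes of acetylcholine handling were followed as 4 lists. Of 15 other receptor genes, 8 had enough counts in the low-dose fit, 9 in the high-dose male fit and 11 in the female fit; the 7 genes of vesicular loading and choline supply and 7 genes of esterase anchors and receptor accessory proteins were tested in all fits, as were 5 of 9 enzymes that bind or break down organophosphates. None of these genes passed in CPF1 males, CPF3 males or CPF3 females, where 0%, 0.159% and 0% of all genes did. An unadjusted p under 0.05 was found for 0, 4 and 1 of them, against 2%, 12.6% and 8.79% of all genes. In CPF3 females this was 1 of the 11 receptor genes. In CPF3 males the 4 genes were 2 of 7 anchors and accessory proteins and 2 of 5 enzymes, with 0 of 9 receptor and 0 of 7 supply genes. In CPF3 males these were Lypd1 (-0.33, interval -0.49 to -0.16, edgeR adjusted p = 0.092) and Prima1 (-0.46, adjusted p = 0.367) among the anchors and accessory proteins, and Pon2 (-0.26, adjusted p = 0.215) and Mgll, a monoacylglycerol lipase (-0.20, interval -0.40 to -0.0030, adjusted p = 0.391), among the enzymes. Lypd1 encodes a small membrane protein that binds nicotinic receptors, Prima1 the membrane anchor of acetylcholinesterase in neurons, and Pon2 a paraoxonase. In CPF3 females it was Chrne, a nicotinic subunit known from muscle (0.67, interval 0.23 to 1.11, edgeR adjusted p = 0.465), followed by Apeh, an acyl peptide hydrolase (-0.14), and Chrna5, a nicotinic subunit (0.32). In CPF1 males the smallest p values belonged to Chrna2 (0.29), Lypd6b (0.14) and Slc18a3, the vesicular acetylcholine transporter (0.26), each with an edgeR adjusted p of 0.997. Slc18a3 lies inside the Chat gene, so reads of the 2 genes can be hard to assign.

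The same controls were also compared with the Aroclor 1254 and bisphenol A groups. Like CPF3 males, Aro5 and BPA5 males differ from these controls also in the form of the library titles. None of the 10 genes passed in edgeR or DESeq2 in Aro5 males (0.195% of all genes passed in edgeR), BPA5 males (0.189%), Aro0.5 males (0.124%), BPA0.5 males (0.0434%), Aro5 females (0%) or BPA5 females (0%). At an unadjusted p under 0.05 there were 2, 0, 2, 1, 0 and 1 of 10 genes by both tools, while edgeR gave this to 11.8%, 9.1%, 18.5%, 8.58%, 3.23% and 4.08% of all genes. In Aro5 males these were Chrna7 (0.63, interval 0.08 to 1.18, edgeR adjusted p = 0.342) and Chrm2 (0.64, interval 0.05 to 1.23, adjusted p = 0.379). In these 6 pups Chrna7 was 7.05, 15.3, 18.3, 24.8, 27.4 and 34.4 CPM. The littermates 120-1y and 120-2y had 34.4 and 24.8 CPM of Chrna7. For Chrm2 they had 8.03 and 8.09 CPM, the highest values of this group. The fit took these littermates as separate pups. Of the neocortical markers 4 of 8 had an unadjusted p under 0.05 here (list median 0.407), and of the thalamic markers 0 of 8 (list median -0.357), with none passing in edgeR; the summed neocortical markers were 503 to 802 CPM (median 631) against 291 to 637 CPM (median 445) in controls. Their part in the values of Chrna7 and Chrm2 was not tested. In Aro0.5 males they were Chrna4 (0.39, adjusted p = 0.199) and Ache (0.37, adjusted p = 0.261), the latter with 48.9, 63.6, 81.5 and 90.8 CPM. In Aro0.5 males 6 of 8 thalamic markers (list median 0.589), 7 of 8 striatal (-0.96), 5 of 8 neocortical (-0.473) and 4 of 6 cholinergic neuron markers (-0.829) also had an unadjusted p under 0.05, with 0 passing in edgeR. Summed thalamic markers were 932 to 1594 CPM (median 1417) in these pups and 595 to 1609 CPM (median 808) in controls, and their part in the values of Chrna4 and Ache was not tested. Chrnb2 was lower in BPA0.5 males (-0.28, adjusted p = 0.477), with 20.3, 28.1, 28.9 and 35.8 CPM, and Slc5a7 was higher in BPA5 females (0.45, adjusted p = 0.925), with 8.84, 10.2, 11.1 and 14.8 CPM. Between CONSC and CONF none of the 10 genes passed in males (0 of 10, with 0.013% of all genes, and 0 of 10 unadjusted, with 0.988%). The same held in females (0 of 10, with 0%, and 0 of 10 unadjusted, with 4.29%), and DESeq2 gave 0 in each of these counts. The intervals leave room for differences. CONSC minus CONF was -0.38 for Chrm2 in females (-0.91 to 0.16) and 0.18 for Chat in males (-0.42 to 0.78). Above 0 lay 1 of 10 genes in females and 6 of 10 in males.

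The 13 groups were also ordered by their mean. Neighbours in such an order are close by construction, and all differed by less than the larger SD of the pair except Aro0.5 and BPA0.5 males for Chrnb2. For Ache the 5 female groups came first, from BPA5 (97.4 ± 15.3 CPM, SD, n = 4) down to CPF3 (81.4 ± 26.9, n = 4), and the 8 male groups followed, down to BPA0.5 (50.1 ± 15.1, n = 4). The 5 female groups also came first for Chrnb2, from BPA5 (48.5 ± 6.495 CPM, n = 4), and BPA0.5 males were again lowest (28.3 ± 6.35 CPM, n = 4). For Chrna7 the order was led by 3 groups of high-dose males, Aro5 (21.2 ± 9.68 CPM, n = 6), CPF3 (20.7 ± 5.85, n = 7) and BPA5, and CPF1 males were lowest (10.8 ± 1.91, n = 4). Chrm2 had the same highest and lowest groups, Aro5 males (5.52 ± 2.68 CPM, n = 6) and CPF1 males (2.27 ± 0.657, n = 4). The 3 groups of high-dose males had form B, and the other male groups had form A save 1 library of a CONF male. High dose and form of the library titles thus cannot be told apart in these orders.

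Male and female controls were therefore compared, with the route (chow or injection) as a term. In female controls Ache, Chrm1 and Chrnb2 were higher than in male controls, 3 of 10 genes, all in this direction, while 29.6% of all genes passed the same threshold and 17.3% passed as higher in females. Ache was 63.6 at the lowest, 81.4 at the median and 114 CPM at the highest in females, against 42.6, 58.7 and 76.6 CPM in males. The log2 difference, female minus male, was 0.61 (95% interval 0.36 to 0.86, edgeR adjusted p = 0.000514). Chrm1 was 22.96, 37.8 and 45.0 CPM in females against 19.4, 23.5 and 27.4 CPM in males, a log2 difference of 0.59 (0.36 to 0.82, adjusted p = 0.000347). Chrnb2 was 32.8, 43.3 and 52.5 CPM against 33.4, 35.0 and 40.1 CPM, a log2 difference of 0.32 (0.18 to 0.46, adjusted p = 0.0012). For each of the 3 genes the sexes overlapped in a few pups. Chrna4 had a log2 difference of 0.37 (0.08 to 0.66) and just missed the threshold (adjusted p = 0.0506); the other 6 genes lay between -0.13 (Slc5a7) and 0.14 (Chrm2).

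This comparison is not free of the form of the library titles, since male controls were nearly all of form A and female controls of both. Within form A libraries 2 of the 10 genes passed, beside 11.4% of all genes: the differences were 0.59 for Ache (edgeR adjusted p = 0.0219) and 0.45 for Chrm1 (adjusted p = 0.0352), whereas Chrnb2 was 0.21 (adjusted p = 0.103) and Chrna4 0.15 (adjusted p = 0.657). Among female controls, form B minus form A was 0.030 for Ache, 0.30 for Chrm1, 0.38 for Chrna4 and 0.17 for Chrnb2, none of which passed in edgeR (0 of 10, beside 0.652% of all genes; Chrna4 alone had an unadjusted p below 0.05).

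For 2 pups the labels give the same litter and pup number to a library of each form, and these were taken as the same animal. The 2 libraries of N4-3x carry different dissection times, those of N2-2y the same. The study counts 42 male and 24 female samples, the number of libraries, so it may treat them as separate. Its female groups match the labels only in total: it lists 4 CONSC and 5 BPA5 females, whereas the labels give 5 and 4. In the female CONF pup N4-3x, Ache was 78.7 CPM in form A and 78.4 CPM in form B, and Chrm1 was 38.9 and 35.8 CPM. In the male CONF pup N2-2y, Ache was 39.8 CPM in form A and 59.2 CPM in form B, Chrm1 16.9 and 28.2 CPM, and Chrna4 25.9 and 43.0 CPM. The log2 differences within this single pup were 0.57, 0.73 and 0.72, beside 0.61, 0.59 and 0.37 between the sexes for the same genes. Chrna7 went the other way, from 19.8 to 15.0 CPM, while Chat (1.40 and 1.41 CPM) and Chrm2 (4.74 and 4.56 CPM) nearly agreed. Its summed hippocampal markers were 192 and 193 CPM and its summed thalamic markers 620 and 572 CPM in the 2 libraries, whereas its choroid plexus markers were 2142 and 3101 CPM. Over all genes the counts of the 2 libraries of N2-2y differed by a chi-square of 31.7 per degree of freedom, and those of N4-3x by 4.10. The libraries of form A and form B thus gave different values for these genes in 1 of these 2 pups. What differed between its libraries beyond the title is not known. Sex and form cannot be fully told apart.

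The same sex difference was examined in other pups, the 20 males and 13 females of the high-dose groups, with treatment as a term. Here 5 of 10 genes passed in edgeR, with 40.1% of all genes, and 3 of these were higher in females, with 20% of all genes. Ache was again higher in females, 49.9 at the lowest, 92.8 at the median and 116 CPM at the highest against 35.9, 53.6 and 117 CPM in males, a log2 difference of 0.67 (0.40 to 0.93, edgeR adjusted p = 0.000171). Chrna4 (0.58, interval 0.36 to 0.81) and Chrnb2 (0.42, interval 0.29 to 0.56) were also higher in females, with adjusted p values of 0.000121 and 9.05e-06. Chrna7 (-0.49, interval -0.83 to -0.16, adjusted p = 0.0178) and Bche (-0.29, interval -0.51 to -0.08, adjusted p = 0.0275) were lower in females. Chrm1 had the direction seen in controls (0.26, interval -0.015 to 0.53) and did not pass (adjusted p = 0.126). Of these litters 11 gave pups of both sexes, which the fit did not take into account. With litter as a block in limma-voom, a fit chosen after seeing the data, the same 5 genes passed and Chrm1 passed as well (0.33, adjusted p = 0.0474). These females were given no form while all 20 males were of form B, so sex and library set cannot be told apart here.

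**Figure D4:**
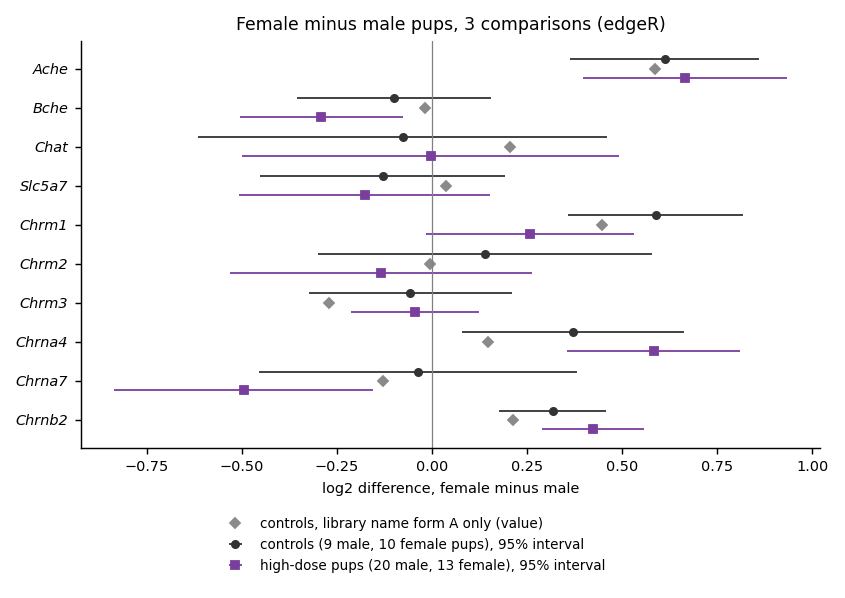
Log2 difference, female minus male (x axis), of the 10 genes (y axis) in controls (black, 95% interval), in controls of form A alone (grey, value) and in high-dose pups (purple, 95% interval). Ache is higher in females by 0.59 to 0.67 in all 3, while Chrna7 and Bche pass below 0 in high-dose pups alone, a contrast that was not tested.

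Region markers moved with the sex comparison as well. In controls 4 of the 6 hippocampal markers tested passed as higher in females (Wfs1, Pou3f1, Lhx2 and Grik4), with a list median of 0.54. So did 2 of 8 neocortical markers (Tbr1 and Rspo1), whereas 0 of 8 thalamic and 0 of 8 striatal markers passed. Of all genes 17.3% passed as higher in females and 29.6% in either direction, and their median was -0.019. The summed hippocampal markers were 168 to 284 CPM in female and 173 to 268 CPM in male controls. The part of this in the differences of Ache, Chrm1 and Chrnb2 was not tested. In high-dose pups 2 of 6 hippocampal markers (list median 0.27), 1 of 8 thalamic (0.25) and 2 of 6 cholinergic neuron markers (0.67) passed as higher in females, 4 of 8 neocortical markers passed, 2 in each direction (0.051), and 0 of 8 striatal markers passed (0.25). Of all genes 40.1% passed in this comparison, and 20% passed as higher in females. The part of these markers in the high-dose differences was not tested either. Of the other cholinergic genes in controls, Slc18a3 (0.75, edgeR adjusted p = 0.00873), Chkb, a choline kinase (0.15), and Pnpla6, the neuropathy target esterase (0.29, adjusted p = 0.000144), were higher in females. Slc44a1, a choline transporter (-0.18), Pcyt1a, an enzyme of phosphatidylcholine synthesis (-0.14), and Ric3, a chaperone of nicotinic receptors (-0.26), were lower. None of the 9 other receptor genes tested passed in edgeR, and 0 had an unadjusted p below 0.05. In the other lists 4 of 7 vesicle and choline supply genes passed, as did 1 of 7 anchors and accessory proteins and 1 of 5 organophosphate enzymes. The share of all genes was 29.6%. In high-dose pups Slc18a3 (0.77) and Pnpla6 (0.22) were again higher in females and Slc44a1 (-0.21) and Pcyt1a (-0.094) lower. Colq, the collagen tail of acetylcholinesterase (0.85), Lypd1 (0.16), Mgll (0.20) and Chrne (0.31) were also higher, and Chka, a choline kinase (-0.13), was lower. These were 1 of 10 receptor genes, 4 of 7 supply genes, 2 of 7 anchors and accessory proteins and 2 of 5 enzymes. Of all genes 40.1% passed.

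Within groups, some of the 10 genes varied together from pup to pup. After removal of the group means from log2 CPM, 20 of 45 pairs passed an adjusted p of 0.05 by permutation within groups, 14 of them positive. The share of pairs of other genes that would pass was not measured, so these counts do not set the 10 genes apart. Ache varied with Chrna4 (Pearson's r = 0.84, Spearman's rho = 0.84, n = 64), and r was 0.825 without the 2 most distant pups. Within form A, form B and the high-dose females r was 0.77, 0.86 and 0.96. Chrna4 also varied with its partner subunit Chrnb2 (r = 0.735, rho = 0.626, and 0.72 without 2 pups; 0.79, 0.70 and 0.73 within the library sets), as did Ache with Chrnb2 (r = 0.67, rho = 0.57, and 0.60 without 2 pups; 0.61, 0.70 and 0.72). These r were thus positive in each set of libraries. Between the 2 libraries of pup N2-2y, form B minus form A, Ache (0.57), Chrna4 (0.72) and Chrnb2 (0.24) also moved the same way. Chrna7 (-0.39) and Bche (-0.25) moved the other way there. In pup N4-3x Ache, Chrna4 and Chrnb2 had -0.0054, 0.21 and 0.049. The part of differences between libraries in the relations of these genes was not tested.

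A second group held Chrna7, Chrm2 and Bche. Chrna7 varied with Chrm2 (r = 0.81, rho = 0.75, and 0.74 without 2 pups; 0.82, 0.87 and 0.485 within the library sets) and with Bche (r = 0.72, rho = 0.68, and 0.65 without 2 pups; 0.75, 0.73 and 0.60). Bche and Chrm2 varied together less closely (r = 0.50, rho = 0.41, and 0.38 without 2 pups; 0.52, 0.62 and -0.045), with adjusted p values of 0.00585 and 0.0127 by permutation. Chat varied with Slc5a7 (r = 0.68, rho = 0.64, and 0.615 without 2 pups), with 0.59, 0.82 and 0.24 within the library sets. Chrm1 varied in the opposite direction to Slc5a7 (r = -0.61, rho = -0.58, and -0.61 without 2 pups; -0.52, -0.80 and -0.052) and to Bche (r = -0.61, rho = -0.59, and -0.545 without 2 pups; -0.59, -0.70 and -0.37). Both values were nearer to 0 in the high-dose females, a difference that was not tested. For the other pairs named here the permutation p was at most 3e-05, with 1e-05 the smallest that 100000 permutations can give, and the adjusted p at most 0.000169 for r and rho.

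Several of the 10 genes varied with markers of a region. Of 50 relations with 5 summed marker lists 29 passed the same test, 14 of them positive. How many other genes would pass was not measured here either. Chrna4 (r = 0.695, rho = 0.76), Bche (r = 0.61, rho = 0.59) and Ache (r = 0.59, rho = 0.62) rose with thalamic markers, and Chrm1 fell with them (r = -0.66, rho = -0.61). Chrm1 rose with neocortical markers (r = 0.65, rho = 0.68), and Chrm3 rose with hippocampal (r = 0.65, rho = 0.66) and fell with striatal markers (r = -0.73, rho = -0.72). Chat rose with the markers of cholinergic neurons (r = 0.625, rho = 0.61), which include Slc18a3 inside the Chat gene. Without the 2 most distant pups these r were 0.66, 0.575, 0.57, -0.61, 0.66, 0.61, -0.69 and 0.605 in the same order. The adjusted p of these relations was at most 8.33e-05. Pups of a litter are not fully independent, and all values of a pup share a library and a dissection.

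**Figure D5:**
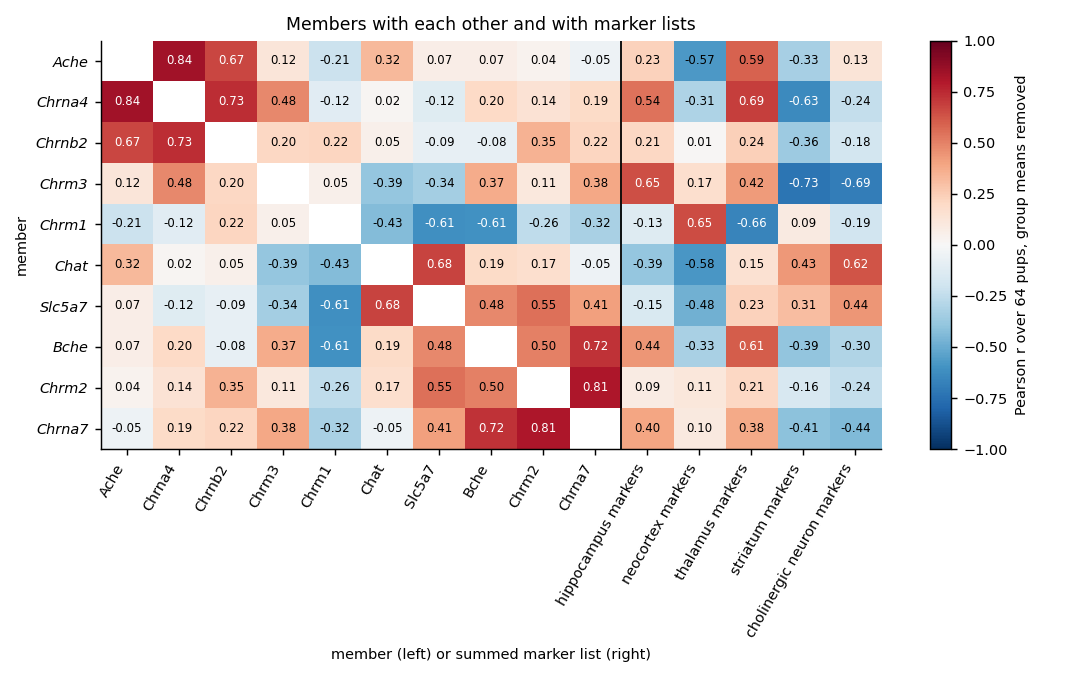
Pearson's r over 64 pups, after removal of group means, of each of the 10 genes (rows) with the others (left) and with 5 summed marker lists (right), in red where positive and blue where negative. Ache, Chrna4 and Chrnb2 form a red block (0.67 to 0.84), as do Bche, Chrm2 and Chrna7 (0.50 to 0.81), and Chrm1 is blue against Slc5a7 and Bche (-0.61 each).

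As a description, the 3 genes most like each member over the 64 pups, by Pearson's r after removal of group means, were sought among genes with a mean of at least 1 CPM. For Ache these were Chga, which encodes chromogranin A (r = 0.94), Slc12a5, the neuronal potassium chloride cotransporter (0.93), and Grin2d, an NMDA receptor subunit (0.925). For Bche they were Oxr1, Sema5a and Cltc (0.85 to 0.86), and for Chat Slc17a8, the vesicular glutamate transporter VGLUT3, Nap1l5 and Prima1 (0.76 each). For Slc5a7 they were Spock3, Fndc3b and Cd55 (0.80 to 0.85). Chrm1 was most like Camk2b, a subunit of calcium/calmodulin-dependent kinase (0.92), Synpo (0.89) and Hr (0.87). Chrm2 was most like Abca5, Pdpk1 and Lonrf2 (each 0.86), and Chrm3 like Lsm11, Homer2 and Nrip3 (each 0.83). Chrna4 was most like Zdhhc22, Slc6a7 and Sorcs2 (0.89 to 0.92), Chrna7 like Ppm1e, Lifr and Chl1 (0.90 to 0.92), and Chrnb2 like Srcin1, Shank3 and Cacna1g (0.81 to 0.84).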

How the data were processed

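Poly-A RNA of the hippocampus of 64 pups was sequenced in 66 stranded TruSeq libraries. The authors aligned the reads to Rnor_6.0 with STAR, counted them per gene with featureCounts and deposited raw counts per library. Versions, strand setting and treatment of multi-mapping reads are not given in the sources used here. The labels name a NovaSeq and the methods a HiSeq sequencer. Gene names came from the deposited gene table.

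Libraries with the same litter and pup number were taken as 1 pup and summed (2 pups with 2 libraries). CPM is the count per 1000000 counts of a pup; it is not divided by length, so levels are not compared between genes. All genes were fitted with the quasi-likelihood test of edgeR 4.0.16 in R 4.3.3 (TMM, filterByExpr, Benjamini-Hochberg over all genes tested, threshold 0.05), with intervals of 95% from its error and degrees of freedom; the steps were tested on simulated data. High-dose males, low-dose males and females were fitted separately, each with its 9 or 10 controls. DESeq2 1.42.0, limma 3.58.1 with litter as a block, other filters, control sets, a dissection window (10.30 to 13.20 h) and each pup left out served as alternatives. The study gives this window for its sequenced brains, but the labels place some pups outside it. By the labels 2 of 5 CONSC males and 4 of 6 Aro5 males lay inside, beside 7 of 7 CPF3 males. High-dose sex and library form comparisons were added after seeing the data. The 10 genes, all lists and tests were chosen with earlier results of these data known.

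The text names all 10 members, genes of the 4 further lists that passed in a comparison or had the 3 smallest p in a chlorpyrifos comparison, and the 3 genes most like each member. Relations used log2(CPM + 0.5), 100000 permutations within groups and Benjamini-Hochberg adjustment over 45 or 50 relations. Nothing beyond the labels says that pups are separate experiments, and p-values measure the spread between these pups. Counts set the precision: 6 or more per pup for Chat, 16 for Chrm2 and 60 or more for the others.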

Additional observations from a re-analysis of the deposited data

Results flagged for a closer look

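In 130 combinations of a gene and a group of 4 to 7 pups, 8 held a pup far from the others by Dixon's criterion, which chance alone would meet in about 1 of 20 groups. In CPF3 males pup 36-3y had 96.2 CPM of Ache (next pup 57.4) and 60.2 CPM of Chrna4 (next pup 47.9). In CONSC females pup 9-1x had 2.43 CPM of Chat (next pup 1.04) and 21.6 CPM of Chrm3 (next pup 49.1), and it also had the highest summed striatal markers (1541 CPM) and cholinergic neuron markers (59.8 CPM) of all pups. In CONSC males pup 8-4y had 64.6 CPM of Chrna4 (next pup 43.7), and the highest summed thalamic markers of all pups (1609 CPM). In Aro5 males pup 120-2y had 3.64 CPM of Chat (next pup 1.15) and the lowest summed hippocampal markers (109 CPM). In CONF males pup N5-2y had 0.642 CPM of Chat (next pup 1.38), and in Aro5 females pup 116-1x had 5.65 CPM of Bche (next pup 7.22). The part of the marker levels in these values was not tested.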

How the results depend on the processing

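The count of members that passed stayed at 0 in all comparisons with chlorpyrifos, Aroclor 1254 or bisphenol A, between doses, in the sex difference of the CPF3 response and between CONF and CONSC under every alternative run, although Chat was not tested where 10 counts in every pup were required. Between male and female controls it was 3, with 2 to 4 under the alternatives; Chrna4 passed with DESeq2 (0.37, adjusted p = 0.0429), without a filter (0.39, adjusted p = 0.0453) and in edgeR without 13-8x (0.42), 9-1x (0.46) or 8-4y (0.45). With litter as a block (limma-voom, estimated litter correlation -0.133) Ache (0.61), Chrm1 (0.56) and Chrnb2 (0.30) passed and Chrna4 (0.34, adjusted p = 0.105) did not, as without the block, and no member passed in the CPF3 response between the sexes. In high-dose pups (litter correlation 0.0484) the block gave 6 members in place of 5, with Chrm1 added. The direction changed with the form as a term in CPF3 males for Chrm1 (-0.017) and Chrm2 (-0.17), with form A controls in CPF3 females for Chrm3 (0.19), with form B controls for Chat (0.22), and between control sexes in form A for Chat (0.21) and Slc5a7 (0.037). With 1 pup left out at a time, 66 of 140 ranges of a member's value held both signs, none with a call, among them Ache in all chlorpyrifos groups (CPF1 males -0.070 to 0.15, CPF3 males -0.20 to 0.042). The sign changed by 1 standard error or more in 6 of these: in CPF3 females for Ache (-0.28 to 0.14; without 38-5x) and Chrnb2 (-0.026 to 0.15; without 45-6x), in Aro5 males for Chat (-0.47 to 0.15; without 120-2y), in Aro0.5 males for Chrnb2 (-0.087 to 0.097; without 98-8y), and between CONSC and CONF for Chrna4 in males (-0.032 to 0.21; without 8-4y) and Chat in females (-0.34 to 0.28; without 9-1x). None of these values passed a test. Counts over all genes moved more: DESeq2 against edgeR gave 90 and 26 in CPF3 males, 3 and 0 in CPF3 females, 103 and 32 in Aro5 males, 73 and 31 in BPA5 males, 244 and 20 in Aro0.5 males, 37 and 7 in BPA0.5 males, 1 and 0 in BPA5 females, and 13 and 8 for the CPF3 response between sexes, which fell to 1 in the dissection window. In CPF3 males 7 remained with at least 10 counts in every pup and 0 with the form as a term, in CPF3 females 110 passed against form A controls, and between control sexes 1885 in form A against 4829. With 1 pup left out the counts were 17 to 41 in CPF3 males (lowest without 35-5y, highest without 10-2y), 25 to 176 in Aro5 males (highest without 108-1y; 67 without N2-2y), 0 to 322 in Aro0.5 males (lowest without 94-3y, highest without 8-4y), 0 to 31 in BPA0.5 males (lowest without 73-4y, highest without 75-1y), 14 to 29 between CPF3 and CPF1 males (lowest without 60-6y or 63-5y) and 3 to 7 for the CPF3 response between sexes (lowest without 35-3x or 43-3x), so the shares of all genes printed beside the members rest on single pups there. The causes were not tested.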
